A study of Mus musculus with 91 samples.

Results

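The genes of miR-322, miR-503, miR-351, miR-542 and miR-450 lie side by side on the mouse X chromosome and form a microRNA cluster. Its 10 mature miRNAs, out of 1504 in the table of mature miRNAs, were followed here through Dnmt mutant embryos and haploid stem cells. They are mmu-miR-322-5p, mmu-miR-322-3p, mmu-miR-503-5p, mmu-miR-503-3p, mmu-miR-351-5p, mmu-miR-351-3p, mmu-miR-542-5p, mmu-miR-542-3p, mmu-miR-450a-5p and mmu-miR-450b-5p. The cluster was selected on the level of miR-351-3p, which stood higher in Dnmt-null than in control epiblast at E6.5, so that this contrast is only described below, with no test.

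Small RNAs were counted by CAS-seq, a small RNA-seq protocol for very small inputs in which Cas9 removes adapter products. In 62 libraries, the extraembryonic ectoderm (Exe) or the epiblast (Epi) had been separated from embryos labelled as from a C57BL/6 male and an F1 female, in the methods an Oct4-EGFP male of C57BL/6J background and a B6D2F1 (C57BL/6J x DBA2) female, collected at E6.5 or E7.5. Each tissue and stage held a control group and 3 mutants. These were Dnmt-null (labelled TKO, with Dnmt1, Dnmt3a and Dnmt3b all inactivated), Dnmt1-KO (labelled KO) and Dnmt3a/3b-DKO (labelled DKO). Each group had 4 libraries, except that control and Dnmt-null Epi at E7.5 had 3 each. The mutants had been made by injecting zygotes, which carried an Oct4-EGFP transgene, with mRNA of the cytosine base editor hA3A-eBE3-Y130F and with sgRNAs that place stop codons. Zygote editing can leave mosaic embryos, and what the controls were injected with is not given in the sources used here. The other 29 libraries came from androgenetic haploid embryonic stem cells (AG-haESCs, C57BL/6, with a sperm-derived genome) and from semi-cloned (SC) embryos made by injecting such cells into oocytes. In these lines DKO has another meaning, the deletion of the H19 and IG differentially methylated regions. The SC embryos at E6.5 were DKO or wild type (WT), and each kind was also made Dnmt-null (named DKO;Dnmt-null and Dnmt-null). At E7.5 they formed a control group and a Mir-6KO;Dnmt-null group, the latter with miRNA genes deleted. The AG-haESC lines were WT, Mir-6KO, O48 and the unidentified 408. O48, the parent line of Mir-6KO, is taken to be DKO. These groups held 3 libraries each, and Mir-6KO cells 2. The sex of the embryos is not given, so the number of X chromosomes per library is unknown.

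A microRNA gene is transcribed as a hairpin that is cut into a duplex. One strand, from the 5p or the 3p arm, is loaded into Argonaute and pairs with messenger RNAs mainly through its seed (bases 2 to 8), and the other strand is usually degraded. miR-322 (the mouse counterpart of human miR-424) and miR-503 belong to the extended miR-15/16 family, which restrains cell-cycle genes such as Cdc25a and cyclin genes. They are known from early mesoderm, cardiac progenitors and differentiating muscle. miR-351-5p carries the seed of miR-125, a family known from stem cells and blood. miR-450 and miR-542 are encoded further along the same strand.

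The mature sequences show which members can share targets, with the seed in capitals (RefSeq, GRCm38.p6, 5′ to 3′).
miR-322-5p: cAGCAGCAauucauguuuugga
miR-503-5p: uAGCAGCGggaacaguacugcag
miR-16-5p (not in the cluster): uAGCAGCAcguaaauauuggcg
miR-351-5p: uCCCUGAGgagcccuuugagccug
miR-125a-5p (not in the cluster): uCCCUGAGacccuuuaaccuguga
miR-450a-5p: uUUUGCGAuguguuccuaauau
miR-450b-5p: uUUUGCAGuauguuccugaaua
The seed of miR-322-5p was identical to that of miR-16-5p, and 12 of 22 positions matched between them. miR-322-5p and miR-503-5p matched at 6 of 7 seed positions and at 11 of 22 positions in all. miR-351-5p had the whole seed of miR-125a-5p but matched it at only 10 of 24 positions. miR-450a-5p and miR-450b-5p matched at 15 of 22 positions and at 5 of 7 in the seed.

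The remaining members are the opposite arms of these hairpins and both arms of miR-542, each with a seed found in no other member.
miR-322-3p: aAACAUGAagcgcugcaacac
miR-503-3p: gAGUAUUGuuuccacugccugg
miR-351-3p: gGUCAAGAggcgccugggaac
miR-542-3p: uGUGACAGauugauaacugaaa
miR-542-5p: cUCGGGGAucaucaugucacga
For all 10 members a sequence entry was found, as it was for 1275 of the 1504 miRNAs in the table.

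The 7 miRNA genes lie within 6353 bases at chrX:53047997-53054349 on the minus strand (GRCm38). In the direction of transcription Mir322 comes first, followed by Mir503 at 295 bases and Mir351 at 996 bases from the start of Mir322. Mir542 begins 4862 bases downstream, and Mir450-2, Mir450-1 and Mir450b begin at 5982, 6105 and 6271 bases. miR-450a-5p is encoded by both Mir450-1 and Mir450-2, so that its count is a sum over the 2 genes. The first 3 genes lie within the RefSeq long noncoding RNA C430049B03Rik (chrX:53053112-53057190), whereas the 4 downstream genes lie outside it. The GENCODE model of that RNA (chrX:53055046-53057190) ends before Mir322, so no exon or intron is assigned to the miRNA genes here.

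**Figure D1:**
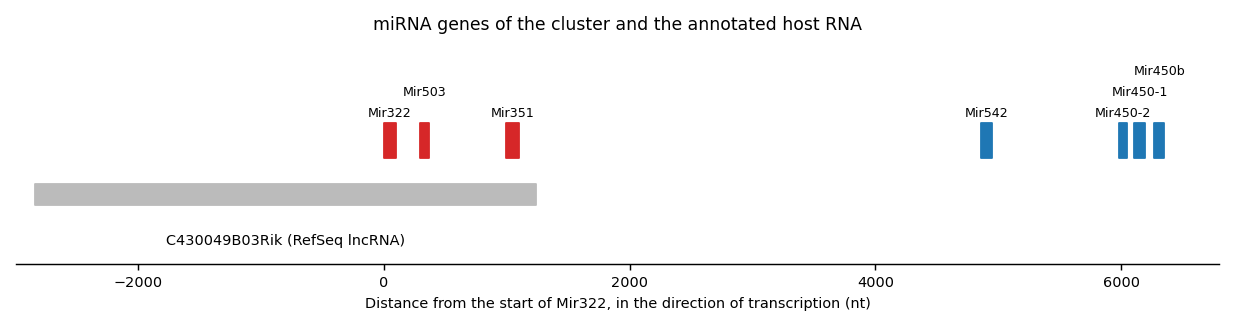
Position of the 7 miRNA genes of the cluster along the minus strand of chromosome X, in bases downstream of the start of Mir322 (x axis, to scale). Red boxes are the 3 genes inside the RefSeq host RNA C430049B03Rik (grey), blue boxes the 4 genes outside it, which begin 4862 bases or more downstream.

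Library totals ran from 45242 to 2394918 counts in the 62 Exe and Epi libraries, and up to 26970637 over all 91. The miR-302/367 markers of epiblast marked the dissection: their summed level was 130400 to 200400 CPM (a count scaled by the library's total of miRNA counts) in control Epi and 17590 to 30820 CPM in control Exe at E6.5. Several libraries stood apart. Replicate 1 of Dnmt-null Epi at E6.5 was the shallowest of all and held no count of any blood or endothelial marker. Replicate 3 of WT SC embryos at E6.5 had an epiblast marker sum of 21250 CPM against 195400 and 214500 CPM in the other 2. Both AG-haESC libraries labelled Mir-6KO had 239300 and 268000 CPM of these markers, against 924 to 1670 CPM in the O48 line from which Mir-6KO cells were derived, a profile that goes against their label.

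The members differed in level by more than 2 orders of magnitude. CPM needs no scaling by length here, since each read covers a whole mature miRNA. How evenly ligation and amplification capture different sequences was not measured, so levels of different miRNAs, arms included, are compared as shares of reads. Over the 62 Exe and Epi libraries the median level was 3115 CPM for miR-351-5p and 798 CPM for miR-322-3p. It was 750 CPM for miR-450a-5p, 491 CPM for miR-351-3p, 372 CPM for miR-503-3p and 276 CPM for miR-450b-5p. The arms of miR-322 and miR-503 that carry the miR-15/16-like seed were the minor ones, with medians of 33.2 CPM for miR-322-5p and 85.8 CPM for miR-503-5p. miR-542-3p was near the limit of counting at 9.15 CPM, and miR-542-5p had a count in only 12 of the 62 libraries.

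Over the Exe and Epi libraries Mir322 and Mir503 were therefore read mainly from their 3p arms, and Mir351 and Mir450b from their 5p arms. The 5p arm gave 3280 of the Mir322 counts and the 3p arm 85879, and the 5p share per library had a median of 3.54%. The 5p share was 19.2% for Mir503, 86.8% for Mir351 and 85.3% for Mir450b (medians over libraries with at least 20 counts). For Mir503 it ran from 0% to 66.7% over these libraries, and from 33.3% to 66.7% in Dnmt-null Epi at E7.5. In AG-haESCs the pooled 5p share of Mir503 was 63.7% in WT, 63.6% in O48, 65.1% in 408 and 20.2% in Mir-6KO.

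In controls, miR-322-3p, both arms of miR-503 and miR-351-5p were higher in Exe than in Epi and higher at E7.5 than at E6.5. By contrast, miR-450a-5p and miR-450b-5p were higher in Epi at E6.5. The upstream miR-322-5p overlapped at E6.5, at 0 to 34.6 CPM in Exe and 0 to 45.4 CPM in Epi. At E6.5, miR-351-5p stood at 4532, 3992, 2603 and 3529 CPM in control Exe and at 419, 704, 594 and 715 CPM in control Epi, with no overlap. miR-322-3p stood at 973, 921, 787 and 639 CPM in Exe and at 80.3, 185, 141 and 168 CPM in Epi. In edgeR's quasi-likelihood test the Epi minus Exe difference was -2.51 ± 0.24 on the log2 scale (SE) for miR-351-5p (adjusted p = 2.95e-07) and -2.44 ± 0.31 for miR-322-3p (adjusted p = 9.99e-06).

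miR-503-5p and miR-503-3p were lower in Epi too, with log2 fold changes of -1.90 and -2.20 (adjusted p = 0.0252 and 0.00834, edgeR). By contrast, miR-450a-5p stood at 167, 309, 366 and 531 CPM in Exe and at 754, 701, 1376 and 1203 CPM in Epi, a log2 fold change of 1.61 ± 0.34 (adjusted p = 0.00167). miR-450b-5p stood at 0, 122, 74.2 and 166 CPM in Exe and at 224, 349, 491 and 479 CPM in Epi, a difference of 2.10 ± 0.54 (adjusted p = 0.00698). Thus 4 of the 8 members with a test were lower and 2 higher in Epi, while 13.6% and 15.2% of 558 miRNAs tested were called lower and higher. In a model of the compared groups only, 2 were lower and 1 higher. A member was called at an adjusted p under 0.05 over all miRNAs tested and a log2 fold change over 0.5 in size. miR-351-3p was not tested in comparisons that use control Epi at E6.5, since those libraries had a part in choosing the cluster. Markers of other cell types differed too: from Epi to Exe, endoderm markers went from 761 to 1768 CPM to 1924 to 4805 CPM and blood markers from 41.4 to 87.3 CPM to 134 to 608 CPM (ranges of the summed list). The mesenchyme or decidua markers stood at 82.8 to 123 CPM in Epi and at 153 to 684 CPM in Exe. Their part in the result was not tested. These are bulk tissues, in which fewer cells of a type and less RNA per cell cannot be told apart.

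At E7.5 the same members again stood lower in Epi, but the miR-450 members were not called. miR-351-5p reached 14273, 10541, 15306 and 17087 CPM in control Exe and 5432, 3755 and 3682 CPM in control Epi, a log2 fold change of -1.64 ± 0.26 (adjusted p = 4.59e-05, edgeR). miR-322-3p reached 6421, 3428, 4765 and 4604 CPM in Exe and 1385, 1018 and 628 CPM in Epi, a difference of -2.16 ± 0.33 (adjusted p = 4.16e-05). miR-503-5p, miR-503-3p and miR-351-3p were also called, which gives 5 of 9 members lower, against 21.9% of the 558 miRNAs. The count was 3 without any one of control Exe replicate 1, 3 or 4 or control Epi replicate 2 or 3. miR-450a-5p stood at 658 to 1017 CPM in Exe and at 1046 to 1217 CPM in Epi, just apart, with a difference of 0.53 ± 0.34 (adjusted p = 0.281). miR-450b-5p lay apart as well, at 172 to 327 CPM in Exe and at 353 to 410 CPM in Epi. The endothelial markers (267 to 596 CPM in Epi, 1351 to 3075 CPM in Exe) and the blood markers (59.8 to 91 CPM and 195 to 806 CPM) were lower in Epi as well, and their part was not tested.

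From E6.5 to E7.5, 7 of 9 members rose in control Exe, against 9.86% of the 558 miRNAs tested. miR-322-5p rose by 3.55 ± 0.94 on the log2 scale (adjusted p = 0.0147, edgeR), from 0, 21.6, 34.6 and 6.39 CPM to 207, 163, 169.6 and 284 CPM. miR-503-3p rose by 2.62 ± 0.57 (adjusted p = 0.00412), from 0, 691, 401 and 185 CPM to 2275, 1737, 1882 and 1988 CPM. The others were miR-322-3p, miR-503-5p, miR-351-5p, miR-351-3p and miR-450a-5p, the smallest rise being 1.28 for miR-450a-5p. In control Epi 4 of 8 members with a test rose, against 9.86% of all: miR-322-3p, miR-503-5p, miR-503-3p and miR-351-5p, by 2.67 to 2.85. The difference for miR-450a-5p in Epi was 0.20 ± 0.35 and for miR-450b-5p 0.02 ± 0.53 (adjusted p = 0.731 and 0.994).

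Markers of other cell types were also higher at E7.5, with ranges that did not overlap. In control Exe the 2 endothelial markers went from 179 to 302 CPM at E6.5 to 1351 to 3075 CPM at E7.5, and the epiblast markers from 17590 to 30820 CPM to 33370 to 45940 CPM. In control Epi the endoderm markers went from 761 to 1768 CPM to 3459 to 4174 CPM and the mesenchyme or decidua markers from 82.8 to 123 CPM to 277 to 414 CPM. There the epiblast markers went from 130400 to 200400 CPM to 202300 to 212600 CPM and the Exe markers from 3559 to 14510 CPM down to 1119 to 1347 CPM. Their part in the rise of the members was not tested.

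**Figure D2:**
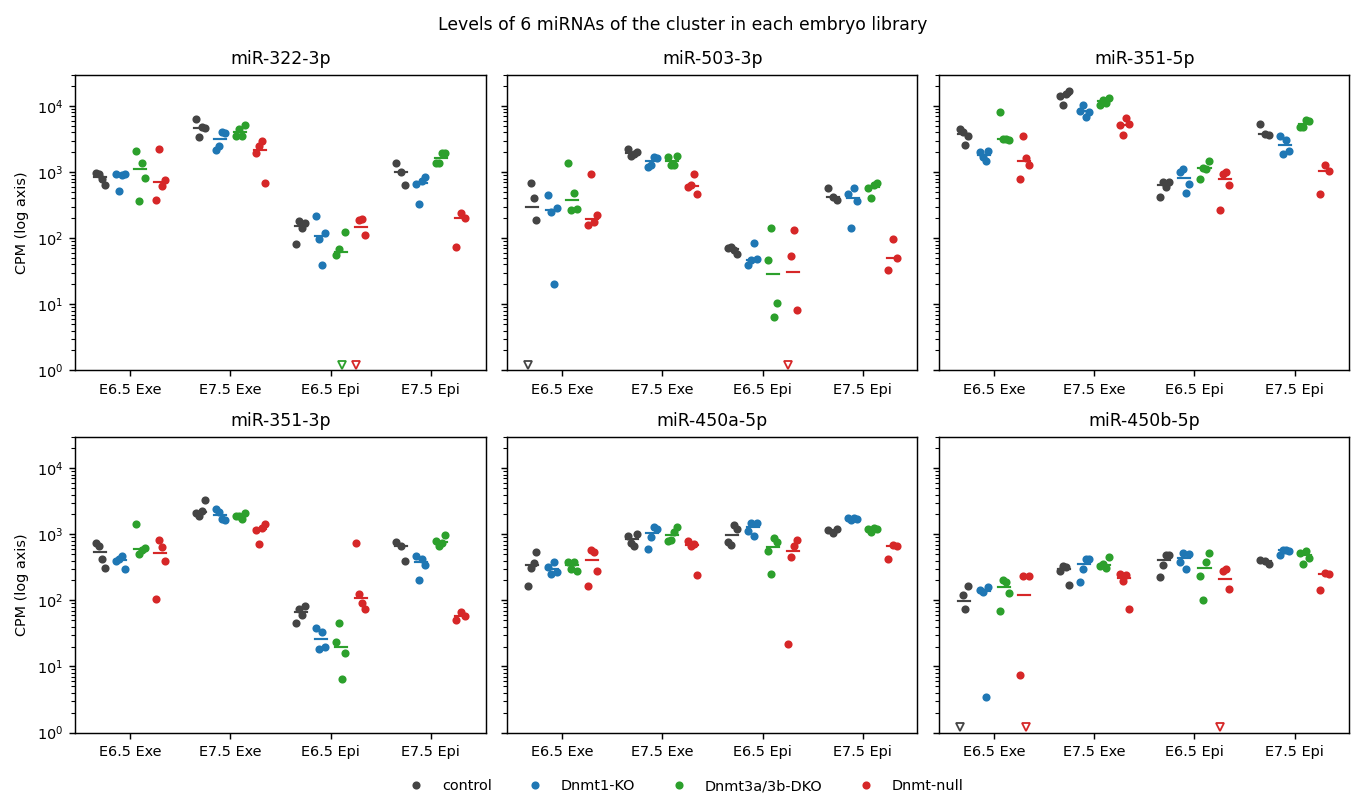
Level of 6 members (CPM, log axis) in each of the 62 Exe and Epi libraries, by tissue, stage and genotype; points are libraries, short lines group medians, and open triangles at the foot of the axis libraries with no count. miR-351-5p is highest in E7.5 control Exe (10541 to 17087 CPM), and the E7.5 Dnmt-null Epi libraries (473 to 1285 CPM) lie below all E7.5 control Epi libraries (3682 to 5432 CPM).

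In the epiblast of Dnmt-null embryos at E7.5, 6 members were called lower than in control. The paper describes these embryos as retarded at E7.5, with failed elongation of the primitive streak. Genotype and developmental delay therefore cannot be told apart at this stage. miR-351-3p stood at 769, 665 and 392 CPM in control and at 51.3, 65.6 and 57.1 CPM in Dnmt-null, a log2 fold change of -3.62 ± 0.34 (adjusted p = 1.23e-06, edgeR, n = 3 and 3). miR-351-5p, the arm with the miR-125 seed, stood at 5432, 3755 and 3682 CPM in control and at 473, 1285 and 1025 CPM in Dnmt-null, a log2 fold change of -2.45 ± 0.31 (adjusted p = 1.53e-05). All 3 Dnmt-null libraries lay below all 3 controls for both arms.

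The arms of the first 2 hairpins followed. miR-322-3p stood at 1385, 1018 and 628 CPM in control and at 73.3, 242 and 199.9 CPM in Dnmt-null, a log2 fold change of -2.78 ± 0.40 (adjusted p = 6.32e-05, edgeR). miR-503-3p stood at 576, 423 and 383 CPM in control and at 33, 98.3 and 50 CPM in Dnmt-null, a log2 fold change of -3.14 ± 0.46 (adjusted p = 6.32e-05). The minor 5p arms had differences of -2.54 ± 1.03 for miR-322-5p and -1.34 ± 0.54 for miR-503-5p, neither of which passed (adjusted p = 0.0684 and 0.0641).

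The downstream miR-450a-5p and miR-450b-5p were called too, with smaller log2 fold changes than the called upstream members. That difference between members was not tested. miR-450a-5p stood at 1154, 1046 and 1217 CPM in control and at 429, 684 and 675 CPM in Dnmt-null, a log2 fold change of -1.17 ± 0.18 (adjusted p = 9.66e-05, edgeR). miR-450b-5p stood at 410.2, 389.5 and 353 CPM in control and at 143, 258 and 249.9 CPM in Dnmt-null, a log2 fold change of -1.06 ± 0.25 (adjusted p = 0.00409). Of the opposite arms of the miR-450 hairpins, which were not in the list, miR-450a-1-3p fell by 1.91 (adjusted p = 0.043) and miR-450b-3p fell by 2.08 (adjusted p = 0.00729). In all, 6 of the 9 members tested fell and none rose, with a median log2 fold change of -2.45, where 16.3% of 652 miRNAs were called lower and the median over all was -0.19. miR-542-3p had a difference of 0.75 ± 1.76 and miR-542-5p did not pass the filter on low counts.

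Compared with the other mutants at the same stage, the same 6 members were lower in Dnmt-null Epi. Against Dnmt1-KO, where 4.75% of the 652 miRNAs were called lower, the 6 had log2 fold changes of -2.69 to -1.39. In the comparison with Dnmt3a/3b-DKO, where 8.59% were called lower, these were -3.92 to -1.13. These comparisons share the Dnmt-null libraries with the one against control. Dnmt3a/3b-DKO Epi itself had no called member by edgeR, where 7.06% of all miRNAs were called in either direction. No member passed with DESeq2 or at an unadjusted p under 0.05, which 17.8% of all miRNAs passed. Its miR-351-5p stood at 4817, 4746, 6068 and 5963 CPM, 0.24 ± 0.27 above control on the log2 scale.

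In Dnmt1-KO Epi both arms of miR-351 had medians between those of Dnmt-null and control. miR-351-5p stood at 3535, 1872, 3082 and 2107 CPM, below all 3 controls, a log2 fold change of -0.88 ± 0.27 (adjusted p = 0.033, edgeR). miR-351-3p stood at 467, 203, 416 and 349 CPM, a log2 fold change of -0.94 ± 0.27 (adjusted p = 0.0264), with its highest library above the lowest control. These were 2 of 9 members, where 6.90% of all were called lower. The call was unstable: none was left in a model of the compared groups only, and 1 with RLE scaling or the replicate block. None was left without control replicate 1 or Dnmt1-KO replicate 2 or 4, and 1 without control replicate 2. With scaling factors set without the Dlk1-Dio3 miRNAs, which differ between genotypes, the count became 1 higher and 0 lower. miR-450a-5p stood at 1792, 1630, 1742 and 1690 CPM in Dnmt1-KO, above all controls, with a difference of 0.40 ± 0.17 that did not pass (adjusted p = 0.12). miR-450b-5p, at 484 to 578 CPM against 353 to 410 CPM, lay above all controls as well and was not called. The epiblast markers (135900 to 200400 CPM) lay below and the Exe markers (1694 to 2211 CPM) above their control ranges, and their part was not tested.

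Other markers moved in Dnmt-null Epi at E7.5 too. The summed epiblast markers (all 5 detected) stood at 202300 to 212600 CPM in control and 105300 to 164900 CPM in Dnmt-null, and the Sfmbt2-cluster markers of extraembryonic ectoderm at 1119 to 1347 and 2399 to 4810 CPM (4 or 5 of 5 detected). The mesenchyme or decidua markers, a list of 5 led by miR-143-3p, stood at 277 to 414 and 85.7 to 159.8 CPM, with miR-214-3p at 0 in every library of both groups. The 2 endothelial markers stood at 267 to 596 and 156 to 232 CPM. The endoderm markers stood at 3459 to 4174 CPM in control, where miR-215-5p was at 0, and at 2345 to 3063 CPM in Dnmt-null. The part of these cell types in the fall of the members was not tested. For the called members, medians in control Epi at E6.5 and in Dnmt-null Epi at E7.5 were set side by side. They were 67.5 and 57.1 CPM for miR-351-3p, 649 and 1025 CPM for miR-351-5p, and 154 and 199.9 CPM for miR-322-3p. For miR-503-3p they were 68.4 and 50 CPM, for miR-450a-5p 979 and 675 CPM, and for miR-450b-5p 414 and 249.9 CPM.

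In Dnmt-null Exe at E7.5, 5 upstream members fell as well, whereas miR-503-5p and the miR-450 members did not pass. miR-351-5p stood at 5143, 3699, 6492 and 5352 CPM, against 10541 CPM or more in every control, a log2 fold change of -1.43 ± 0.20 (adjusted p = 0.000117, edgeR, n = 4 and 4). miR-503-3p stood at 597, 641, 930.3 and 459 CPM, against 1737 to 2275 CPM, a log2 fold change of -1.57 ± 0.22 (adjusted p = 0.000117). miR-322-3p stood at 1915, 2445, 2978 and 681 CPM, against 3428 to 6421 CPM, a log2 fold change of -1.27 ± 0.31 (adjusted p = 0.0117).

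miR-322-5p, at 82.6, 59.5, 109 and 32.1 CPM against 163 to 284 CPM, fell by 1.53 ± 0.46 (adjusted p = 0.0391, edgeR), and miR-351-3p, at 1160, 703, 1235 and 1412 CPM against 1877 to 3256 CPM, fell by 1.02 ± 0.26 (adjusted p = 0.0131). The groups did not overlap for any of these 5. They did not overlap for miR-503-5p either, at 52.3 to 285 CPM against 306 to 457 CPM, which was not called. How many of all miRNAs did not overlap was not counted. Thus 5 of 9 members fell, with a median of -1.02 over the 9, where 3.02% of 597 miRNAs were called lower and the median of all was -0.05. The count was 3 without control replicate 1 or 4 and 3 in a model of the compared groups only. miR-450a-5p and miR-450b-5p had differences of -0.48 ± 0.30 and -0.57 ± 0.36 (adjusted p = 0.42 and 0.422). The epiblast markers stood at 33370 to 45940 CPM in control and at 17250 to 27410 CPM in Dnmt-null, with no overlap. The 2 endothelial markers moved the same way, from 1351 to 3075 CPM in control to 192 to 2359 CPM in Dnmt-null, as did the blood markers (195 to 806 and 84.7 to 210.4 CPM, with miR-223-3p at 0 throughout). Their part in the result was not tested.

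Dnmt1-KO and Dnmt3a/3b-DKO Exe at E7.5 had no called member by edgeR, where 5.03% and 3.02% of all miRNAs were called. In Dnmt1-KO, miR-351-5p stood at 8553, 10500, 6938 and 8228 CPM, below every control, with a difference of -0.67 ± 0.20 (adjusted p = 0.0574). It passed at an unadjusted p under 0.05, as 16.8% of all miRNAs did. With DESeq2 1 member passed, and by edgeR 1 passed without the filter on low counts and 1 without control replicate 2 or Dnmt1-KO replicate 2. In Dnmt3a/3b-DKO no member passed with DESeq2 or at an unadjusted p under 0.05, which 8.21% of all passed. Between mutants, miR-503-3p was lower in Dnmt-null than in Dnmt1-KO Exe (-1.18 ± 0.22, adjusted p = 0.00615), the only member of 9, where 0.503% of all were called lower. That call was lost in a model of the compared groups only (adjusted p = 0.0726, edgeR), in which no member passed. With DESeq2 or without the filter on low counts the count was 2. It was 2 without Dnmt-null replicate 3, 3 without Dnmt-null replicate 4, and 6 at an unadjusted p under 0.05 (14.9% of all). In the comparison with Dnmt3a/3b-DKO miR-503-3p and miR-351-5p were lower, with log2 fold changes of -1.13 and -1.11, where 2.51% were called lower. The count was 8 at an unadjusted p under 0.05 (9.55% of all).

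The test of the difference itself, the Dnmt-null effect in Epi minus that in Exe, was passed by miR-351-3p alone with edgeR as set here. Its value was -2.36 ± 0.42 (adjusted p = 0.000398, edgeR, over 728 miRNAs of which 7.01% were called in either direction), so that this arm fell more in Epi. With DESeq2 or with RLE scaling the count was 2 members, and without the filter on low counts it was 4, all lower. At an unadjusted p under 0.05 it was 4 as well (16.5% of all). Without Dnmt-null Exe replicate 4 the count was 2 members and without Dnmt-null Epi replicate 2 it was 3. For miR-351-5p, from the same hairpin, the difference was -0.77 ± 0.36 (adjusted p = 0.26), and for miR-503-3p -1.31 ± 0.47 (adjusted p = 0.0939). For the Dnmt1-KO and Dnmt3a/3b-DKO effects no member passed by edgeR, where 5.22% and 4.12% of all were called, or by DESeq2. At an unadjusted p under 0.05 none passed for Dnmt1-KO (19.8% of all), and 3 passed for Dnmt3a/3b-DKO (14.7% of all), each higher in Epi.

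**Figure D3:**
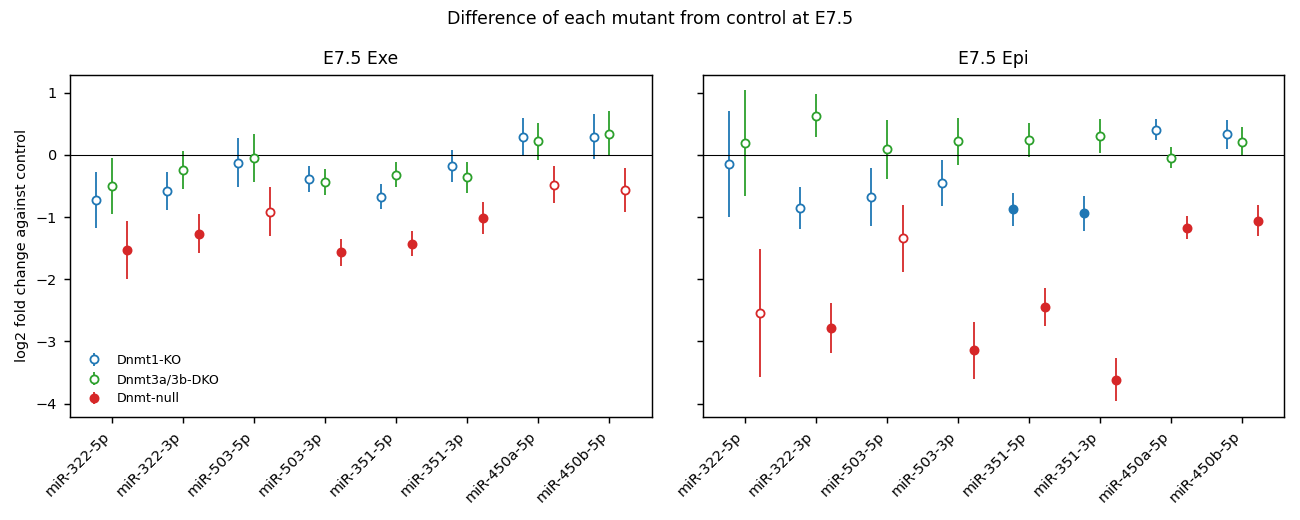
Log2 fold change against control (y axis) of 8 members at E7.5 (x axis), in Exe (left panel) and Epi (right panel) and by mutant (colour); points are the fitted values, bars extend 1 standard error to each side, filled points are members called and open points members not called. All called members lie below 0, and those of Dnmt-null Epi reach furthest, to -3.62 for miR-351-3p.

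At E6.5 no member was called between a mutant and control in Exe. By edgeR 0 of 7 members were called for each of the 3 mutants, where 0% (Dnmt1-KO), 0.532% (Dnmt3a/3b-DKO) and 0.532% (Dnmt-null) of 376 miRNAs were called. miR-351-5p stood at 2021, 1668, 1463 and 2076 CPM in Dnmt1-KO and at 782, 3531, 1615 and 1296 CPM in Dnmt-null, against 2603 to 4532 CPM in control. It was the 1 member that passed at an unadjusted p under 0.05 in Dnmt1-KO (8.78% of all) and in Dnmt-null (13.0%), while none passed in Dnmt3a/3b-DKO (9.04%). DESeq2 called 1 member in Dnmt-null and none in the others. Replicate 2 of Dnmt-null Exe was the highest of its group for each member inside the host RNA and for miR-450a-5p and miR-450b-5p. That library had 938 CPM of miR-503-3p against 158 to 221 CPM, and 1 member was called without it. Comparing Dnmt-null with the other mutants also gave no call by edgeR or DESeq2 (0% of all miRNAs). At an unadjusted p under 0.05 none passed relative to Dnmt1-KO (3.72% of all) and 1 relative to Dnmt3a/3b-DKO (1.60%).

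In Epi at E6.5 the contrast that chose the cluster is given as values. miR-351-3p stood at 45.4, 74.7, 60.3 and 82.8 CPM in control and at 752, 124, 90 and 73.1 CPM in Dnmt-null. The highest of these, 752 CPM, is replicate 1, the library of 45242 counts, in which the 5p arm, miR-351-5p, had only 265 CPM. Without it, the Dnmt-null libraries spanned 73.1 to 124 CPM and overlapped the controls. The fitted log2 fold change was 1.78 for miR-351-3p and 0.08 for miR-351-5p, which stood at 419, 704, 594 and 715 CPM in control and at 265, 931, 990.2 and 641 CPM in Dnmt-null. Of all 409 miRNAs, 13.0% were called in this contrast.

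Replicate 1 also held 995 CPM of the mesenchyme or decidua markers, against 106 to 465 CPM in the other 3, and 2365 CPM of miR-125b-5p; their part in the level of miR-351-3p was not tested. The same library had no count of miR-322-3p, miR-503-3p or miR-450b-5p and 22.1 CPM of miR-450a-5p. The other 3 Dnmt-null Epi libraries had 461, 660.1 and 828 CPM of miR-450a-5p, against 754, 701, 1376 and 1203 CPM in control. The 5p share of Mir351 was 26.1% in replicate 1 and up to 91.7% in the group, against 89.6% to 90.8% in control. In Dnmt1-KO Epi it was 93.8% to 98.4% and in Dnmt3a/3b-DKO Epi 96.3% to 99.4%. miR-351-3p stood there at 38.3, 18.2, 32.7 and 19.9 CPM and at 23.6, 45.1, 6.45 and 15.9 CPM, so that the 4 libraries of each mutant lay below the lowest control, 45.4 CPM. miR-351-3p received no test in these contrasts. Of the other 5 members in the model none was called by edgeR (0.733% and 3.42% of the 409 miRNAs were) or by DESeq2. None passed at an unadjusted p under 0.05 either (12.0% and 14.9% of all did).

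**Figure D4:**
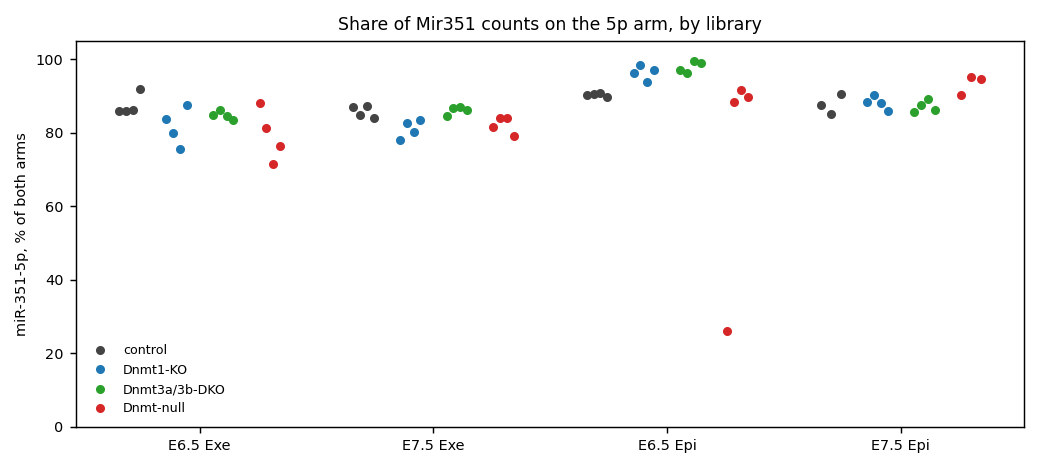
Share of Mir351 counts that came from the 5p arm (miR-351-5p, % of the counts of both arms, y axis) in each of the 62 Exe and Epi libraries, by stage and tissue (x axis) and genotype (colour); each point is a library. Replicate 1 of E6.5 Dnmt-null Epi lies apart at 26.1%, and every other library lies at 71.6% or higher.

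Next, the members were set beside miRNAs with the same seed from other loci. In Epi at E7.5, miR-16-5p stood at 3912, 3646 and 3958 CPM in control and at 2122, 3194 and 2592 CPM in Dnmt-null, and fell by 0.78 ± 0.16 (adjusted p = 0.00123, edgeR). miR-15b-5p, which is encoded next to it, fell by 0.88 ± 0.21 (adjusted p = 0.00335). Of the 5 relatives of miR-322-5p these 2 were called, both lower, and miR-15a-5p, miR-195a-5p and miR-497a-5p were not, where 16.3% of all miRNAs were called lower. miR-322-5p made up at most 5.37% of the counts with its seed in any Exe or Epi library, so that most counts with this seed came from outside the cluster.

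miR-125a-5p went the other way from miR-351-5p. It stood at 9272, 9488 and 6652 CPM in control Epi and at 23561, 11368 and 23944 CPM in Dnmt-null Epi at E7.5, and rose with an adjusted p of 0.0304 (edgeR, where 15.6% of all miRNAs were called higher), while miR-125b-5p differed by 0.17 ± 0.41. miR-351-5p supplied a median of 34.6% of the counts with the CCCUGAG seed in control Epi at E7.5 and 4.04% in Dnmt-null Epi, where the groups did not overlap (27.4% to 36.2% and 1.91% to 9.94%). In Exe at E7.5 these medians were 65.7% and 28.2%. In Exe none of the 4 tested relatives of miR-322-5p and none of the 2 of miR-351-5p was called, where 3.02% of all were called lower and 6.87% higher.

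The upstream and downstream members moved apart over the 16 groups of Exe and Epi. The sum of the 6 members inside the host RNA stood in ratio to that of the 4 outside it at a median of 12.3 in control Exe and 0.64 in control Epi at E6.5. At E7.5 the ratio was 21.9 in control Exe, 4.18 in control Epi and 1.43 in Dnmt-null Epi. This grouping was made after the values were seen and has no test. Across the 16 groups, the mean log2 CPM of miR-351-5p had a Pearson correlation of 0.94 with that of miR-503-3p and 0.92 with that of miR-322-3p, but 0.24 with miR-450a-5p and 0.17 with miR-450b-5p. miR-450a-5p and miR-450b-5p had a correlation of 0.93 with each other. These are descriptions over groups that share libraries between the members.

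Outside the cluster, the 5 miRNAs of 560 whose group means were most like those of miR-351-5p were miR-365-3p (0.93), miR-143-3p (0.90), miR-30d-5p (0.86), miR-484 (0.84) and miR-365-2-5p (0.84). miR-143-3p is one of the mesenchyme or decidua markers above. In the order of the 16 group medians, miR-351-5p ran from 14789 CPM in control Exe at E7.5 to 649 CPM in control Epi at E6.5. The only neighbours in that order whose libraries did not overlap were Dnmt1-KO Exe and Dnmt3a/3b-DKO Epi at E7.5, ranked 3 and 4. miR-450a-5p had its highest median, 1716 CPM, in Dnmt1-KO Epi at E7.5, apart from the next group.

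Other X-linked miRNAs moved in both directions. Of 121 other mature miRNAs from X-linked genes, 66 were tested in Dnmt-null Epi at E7.5, where 24 rose and 9 fell, with a median log2 fold change of 0.59. Over all 652 miRNAs, 102 rose and 106 fell. In Dnmt-null Exe at E7.5, 17 of 60 rose and 1 fell, with a median of 0.56, where 41 rose and 18 fell over all 597. The comparison of the cluster with these miRNAs is by counts alone.

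Semi-cloned embryos gave a second set of Dnmt-null libraries, with 3 per group. At E6.5, no member of 7 was called in Dnmt-null against WT (1.52% of 461 miRNAs were called) or in DKO against WT (0.217%) by edgeR or DESeq2. miR-450a-5p stood at 1242, 1049 and 147 CPM in WT, at 480.3, 452 and 747 CPM in Dnmt-null and at 1343, 1329 and 1349 CPM in DKO. The value of 147 CPM is that of the WT replicate 3 that stood apart, which also held 2153 CPM of miR-351-5p against 512 and 427 CPM. Without that library 1 member was called in Dnmt-null against WT. At an unadjusted p under 0.05, 1 member passed in Dnmt-null (18.9% of all) and none in DKO (13.0%).

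In SC embryos from DKO-AG-haESCs at E6.5, 4 of 9 members were lower in Dnmt-null, where 11.6% of 603 miRNAs were called lower. With a library left out the count was 3 to 5. Library totals were 177142 to 1366522 counts in DKO;Dnmt-null and 2150520 to 2425038 counts in DKO. miR-450a-5p stood at 1343, 1329 and 1349 CPM in DKO and at 843, 762 and 879 CPM in DKO;Dnmt-null, a log2 fold change of -0.80 ± 0.09 (adjusted p = 1.77e-06, edgeR). The log2 fold change was -0.63 ± 0.15 for miR-450b-5p, -0.74 ± 0.16 for miR-322-3p and -0.97 ± 0.31 for miR-351-3p (adjusted p = 0.00227, 0.0014 and 0.0216). The DKO;Dnmt-null libraries stand in a table of their own, so that table and genotype cannot be told apart. All 6 marker lists lay apart as well. From DKO to DKO;Dnmt-null, the epiblast markers went from 178000 to 196800 CPM to 130100 to 147100 CPM and the endothelial ones from 257 to 282 CPM to at most 245 CPM. The endoderm markers went up from 1604 to 1966 CPM to 2687 to 3595 CPM, and the Exe markers from 9239 to 10390 CPM to 11130 to 14400 CPM. The blood markers went from 24.6 to 35.5 CPM to 95.9 to 147 CPM and the mesenchyme or decidua markers from 169 to 196 CPM to 220.2 to 304 CPM. Their part in the result was not tested.

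At E7.5, SC embryos labelled Mir-6KO;Dnmt-null, from DKO-AG-haESCs with 6 deleted miRNA genes, were set beside control SC embryos. The 6 deleted genes do not lie in this cluster. In the paper the control SC embryos came from DKO-AG-haESCs as well, so both groups are taken to carry the H19 and IG deletions. miR-351-5p stood at 4392, 2824 and 2402 CPM in control and at 1430, 1708 and 2178 CPM in Mir-6KO;Dnmt-null, with no overlap and a difference of -1.07 ± 0.27 that did not pass (adjusted p = 0.0977, edgeR). miR-322-3p stood at 1452, 1646 and 500.0 CPM and at 446, 419 and 552 CPM, a difference of -1.56 ± 0.40 (adjusted p = 0.0977). No member of 9 was called, where 3.08% of 585 miRNAs were. Here 3 members passed at an unadjusted p under 0.05 (10.8% of all), with DESeq2 or without the filter on low counts 2 did, and by edgeR 1 did without control replicate 3. The epiblast markers (178100 to 220300 CPM in control, 77550 to 170800 CPM in Mir-6KO;Dnmt-null) and the endoderm markers (1574 to 3538 and 3929 to 4634 CPM) lay apart, and their part was not tested.

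In AG-haESCs all 10 members passed the filter on low counts, and 3 differed between lines. miR-351-5p stood at 1246, 1376 and 1341 CPM in WT cells and at 3055, 3080 and 2588 CPM in O48, the line into which the deletion plasmids for the miRNA genes were brought, a rise of 1.17 ± 0.18 (adjusted p = 0.00342, edgeR). The paper deleted those genes in DKO-AG-haESCs, so O48 is taken to carry the H19 and IG deletions that WT cells lack. miR-450a-5p stood at 439.8, 425 and 431 CPM in WT and at 872, 548 and 904 CPM in O48, a rise of 0.87 ± 0.20 (adjusted p = 0.0239), and miR-450b-5p rose by 0.96 ± 0.21 (adjusted p = 0.0183). These 3 of 10 members rose, where 2.07% of 773 miRNAs were called higher and the median of all was -0.28. With RLE in place of TMM scaling that median moved by 0.37 and 6 members were higher, with DESeq2 7 were and with the replicate block 1 was. At an unadjusted p under 0.05 the count was 7 (20.7% of all). The count was 1 without any one of the WT libraries or O48 replicate 3. The lines also differed in the epiblast markers (3659 to 3914 CPM in WT, 924 to 1670 CPM in O48), the endoderm markers (3056 to 3351 and 1049 to 1159 CPM) and the Exe markers (3725 to 3852 and 1955 to 2811 CPM), whose part was not tested.

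The libraries labelled Mir-6KO, of which there are 2, are compared with O48 under the doubt on their label given above. miR-322-5p had no count in either, against 8.23, 15.4 and 6.01 CPM in O48, and was at least 28.1-fold lower, taking 3 counts in the shallower library (0.352 CPM) as the floor. miR-503-5p stood at 77 and 48.6 CPM against 113, 151 and 135 CPM, a log2 fold change of -1.60 ± 0.35 (adjusted p = 0.00573, edgeR). The opposite arm, miR-503-3p, stood at 301 and 196 CPM against 51.2, 107 and 68.4 CPM, a rise of 1.21 ± 0.38 (adjusted p = 0.0299). miR-351-3p rose by 1.45 ± 0.48 and miR-450b-5p by 0.83 ± 0.23 (adjusted p = 0.0379 and 0.0178). Thus 3 of 10 members rose and 2 fell, where 20.2% and 31.4% of all were called higher and lower and the median of all was -0.82. The count of called members was 3 without O48 replicate 1 or 3. Without the filter on low counts or with the replicate block it was 2, both lower.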

How the data were processed

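CAS-seq libraries were made from 100 pg of RNA by adapter ligation, Cas9 treatment, in vitro transcription and PCR. No molecular identifiers were mentioned, and floors cover counting error only. The ± values are standard errors of the edgeR fits, which include the spread between libraries. Trimming with fastp 0.20.1 was followed by Bowtie 1.2.1.1 alignment, first against GRCm38 and next against mature miRBase sequences, from which the authors deposited one count per mature miRNA and library, not normalized. They tested with DESeq2 1.30.1. The 3 libraries of DKO;Dnmt-null SC embryos had a table of their own, and 2 columns of an earlier table that belong to no sample here were not used.

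The deposited counts were fitted per tissue and stage with edgeR 4.0.16 (quasi-likelihood test, TMM scaling, filterByExpr with a minimum count of 10, limma 3.58.1, R 4.3.3) over all miRNAs. Tests were two-sided, with Benjamini-Hochberg adjustment over all miRNAs tested, and a call needed an adjusted p under 0.05 and a log2 fold change over 0.5 in size. The fits were tested on simulated data. The alternatives were RLE scaling, DESeq2 1.42.0, TMM factors computed with Dlk1-Dio3 miRNAs left out, keeping miRNAs of low count, a model of the compared groups only, unadjusted p, the replicate block and leaving out each library. Library totals ran from 45242 to 26970637 counts. A floor is 3 counts.

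The members and lists were chosen with earlier results of these data known. The text names all 10 members, their 3 other arms, relatives with the same seed and the 5 miRNAs most like miR-351-5p over 16 groups, and gives other X-linked miRNAs by counts. Groups follow the labels, which name no batch and do not say that libraries of a group came from separate embryos, so that p-values measure the spread between these libraries. No pair of replicates agreed within sampling noise. Line 408 is not identified by the labels and entered no comparison. Sequences and positions are those of RefSeq and, for the host RNA, also GENCODE. Replicate numbers were taken to pair libraries where the deviations from the group means of every same-numbered pair had a correlation over 0.1. This held for 2 of 36 pairs of groups, E6.5 Epi control with Dnmt-null (4 of 4 pairs), whose contrast has no test, and E6.5 SC WT with DKO (3 of 3 pairs).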

Additional observations from a re-analysis of the deposited data

Results flagged for a closer look

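Single libraries stood far from the rest of their group for 7 of 98 sets of a member and a group of 4 libraries (Dixon's criterion, median count of at least 10), where chance gives about 4.9. The miR-351-3p values that chose the cluster were left out. In E6.5 Exe, Dnmt1-KO replicate 2 had 511.4 CPM of miR-322-3p, with the nearest library at 910.7 CPM, and Dnmt1-KO replicate 3 had 3.411 CPM of miR-450b-5p, with the nearest at 136.2 CPM. Dnmt-null replicate 2 had 937.9 CPM of miR-503-3p, with the nearest at 221.3 CPM. Dnmt3a/3b-DKO replicate 1 had 7993 CPM of miR-351-5p and 1430 CPM of miR-351-3p, with the nearest at 3177 and 614.8 CPM. In E7.5 Epi, Dnmt3a/3b-DKO replicate 4 had 107.6 CPM of miR-322-5p, with the nearest at 36.26 CPM, and Dnmt1-KO replicate 1 had 484.4 CPM of miR-450b-5p, with the nearest at 563.3 CPM.

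The Dnmt-null effect on miR-351-3p at E7.5 differed between the tissues by -2.357 on the log2 scale (Epi minus Exe, adjusted p = 0.000398, edgeR). In the AG-haESC line 408, which entered no comparison, the median level was 1732 CPM for miR-351-5p and 603.8 CPM for miR-450a-5p.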

How the results depend on the processing

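The 6 members called in E7.5 Dnmt-null Epi against control were called under every alternative run, and no log2 fold change of a called member changed sign. Over the comparisons, 168 of 201 counts of members called stayed within 1.5 times the reported count under other settings, and 212 of 239 did with a library left out. The log2 fold changes of called members kept their call in 401 of 427 cases under other settings and in 392 of 446 with a library left out. The cause of each shift was not tested.

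With an unadjusted p the count was 1 for E6.5 Exe Dnmt1-KO, Dnmt-null, and Dnmt-null against Dnmt3a/3b-DKO, and 1 for E7.5 Exe Dnmt1-KO. It was 6 and 8 for E7.5 Exe Dnmt-null relative to Dnmt1-KO and Dnmt3a/3b-DKO, 3 and 4 for the tissue difference of the Dnmt3a/3b-DKO and Dnmt-null effects, 1 and 3 for SC Dnmt-null at E6.5 and E7.5, and 7 for O48. With DESeq2 it was 1 for E6.5 Exe Dnmt-null and E7.5 Exe Dnmt1-KO, 2 for E7.5 Exe Dnmt-null relative to Dnmt1-KO, for the tissue difference of Dnmt-null and for SC at E7.5, and 7 for O48. Without the filter it was 1 for E7.5 Exe Dnmt1-KO, 2 for Dnmt-null relative to it, 4 for the tissue difference of Dnmt-null, 2 for SC at E7.5 and 2 for Mir-6KO. In a model of the compared groups only it was 3 for E7.5 Exe Dnmt-null, 0 for Dnmt-null relative to Dnmt1-KO there, 0 for E7.5 Epi Dnmt1-KO and 3 for control Epi against Exe at E6.5. With RLE it was 1 for E7.5 Epi Dnmt1-KO, 2 for the tissue difference of Dnmt-null and 6 for O48. With TMM without Dlk1-Dio3 miRNAs it was 1 for E7.5 Epi Dnmt1-KO. RLE moved the median of all miRNAs by over 0.1 (log2) in 7 of 30 comparisons and TMM without Dlk1-Dio3 miRNAs in 20 of 30.

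With the replicate block the count was 1 for E7.5 Epi Dnmt1-KO, 1 for O48 and 2 for Mir-6KO. The numbers pair the libraries by the criterion given above for DKO against WT SC embryos, where the count was 0 with and without the block, and not in the other tested comparisons between genotypes (29 of 134 same-numbered pairs over 0.1 in all). The share differed between models, with 11 of 24 pairs in E6.5 Epi, 5 of 9 in SC at E6.5 and 0 of 19 in E7.5 Epi. In 95 of 264 combinations of a library with another group, the library correlated best with its own number. For DKO;Dnmt-null and DKO this held in 6 of 6 and for SC at E6.5 in 10 of 18, a hint from the data and not from the design.

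Leaving out one library each gave 0 to 1 members for E6.5 Exe Dnmt-null and Dnmt-null relative to Dnmt3a/3b-DKO, 0 to 1 for E7.5 Exe Dnmt1-KO, 3 to 5 for E7.5 Exe Dnmt-null, and 1 to 3 for Dnmt-null relative to Dnmt1-KO there. It gave 0 to 2 for E7.5 Epi Dnmt1-KO, 3 to 5 for control Epi against Exe at E7.5, 1 to 3 for the tissue difference of Dnmt-null, 0 to 1 for SC Dnmt-null at E6.5 and at E7.5, 1 to 3 for O48 and 3 to 6 for Mir-6KO. Mir-6KO with 1 library left is assumed to vary like the other groups. Depth limits miR-322-5p, miR-503-5p and both arms of miR-542, and the E6.5 libraries of Exe and Epi (45242 to 600821 counts) more than those at E7.5 (266379 to 2394918 counts).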
